A study of Mus musculus with 32 samples.

Results

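Quinones, carbonyls and epoxides are reactive products of drug metabolism, lipid peroxidation and normal turnover, and the liver carries a set of enzymes that reduce, oxidise or hydrolyse them. The 10 genes described here encode such enzymes: the quinone reductases Nqo1 and Nqo2, the carbonyl reductases Cbr1 and Cbr3, their short-chain dehydrogenase relative Htatip2, the epoxide hydrolases Ephx1 and Ephx2, the formaldehyde-pathway hydrolase Esd, and the aldehyde oxidases Aox1 and Aox3. They were picked by symbol from a table of liver RNA abundance, in which all 10 were present among 20821 gene symbols.

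The liver was taken from 4 Gclc KO and 4 Gclc WT adult mice. Gclc encodes the catalytic subunit of glutamate-cysteine ligase, which starts glutathione (GSH) synthesis. Gclc KO mice carried floxed Gclc (Gclc f/f) with Rosa26-CreERT2, a tamoxifen-activated recombinase expressed throughout the body, and Gclc WT mice carried Gclc f/f alone. Mice of both genotypes received tamoxifen intraperitoneally at 150 mg/kg for 5 days, and livers were collected 14 days later. Because the Gclc WT mice lacked the recombinase, loss of Gclc and the presence of active CreERT2 cannot be told apart. Gclc KO mice also lost weight in the study, and the part of that state in the values below was not tested.

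Each mouse was measured in 4 RNA-seq libraries, which the labels place in 2 batches with 2 runs each. Values are TPM (transcripts scaled to a common library total), a level corrected for transcript length and library total, averaged over the 4 libraries of a mouse. Sequencing depth is unknown, since TPM do not keep it, so a level near 0 cannot be given a counting limit. Libraries held 12341 to 14016 genes above 0. In bulk liver, fewer cells of a type and less RNA per cell cannot be told apart.

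The deletion was visible in the RNA. Gclc (Entrez 14629) was at 26.9, 16.1, 18.6 and 26.8 TPM in Gclc KO mice 1 to 4, against 82.3, 114.1, 77.8 and 138.4 TPM in Gclc WT mice 1 to 4. Every Gclc KO mouse lay below every Gclc WT mouse (log2 fold change −2.17, SE 0.23, limma adjusted p = 0.000441). Fold changes throughout are Gclc KO over Gclc WT on the log2(TPM + 1) scale, where low genes appear to change less than they did, and a gene was called at a Benjamini-Hochberg adjusted p under 0.05 over the 5893 genes whose mean reached 10 TPM.

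Markers of liver were present. Summed TPM of 6 hepatocyte genes was 70667 to 140251 in Gclc KO and 70395 to 98911 in Gclc WT mice, with 0 of 6 higher and 2 of 6 lower. Alb was the largest part of that sum, at a mean of 85769 TPM in Gclc KO and 56699 TPM in Gclc WT livers. Members of other lists were called in 1 direction, beside 16.4% of all genes tested called higher and 13.0% called lower. The sums of 2 lists, the pericentral and Kupffer cell genes, did not overlap between genotypes. The 7 pericentral hepatocyte genes summed to 1884 to 5349 TPM in Gclc KO and 8084 to 12220 TPM in Gclc WT mice, with 6 of 6 tested members lower. The 6 periportal genes summed to 2679 to 3879 TPM in Gclc KO and 3816 to 7112 TPM in Gclc WT mice, with 3 of 6 lower and sums that overlapped. The 9 Kupffer cell genes summed to 825 to 1385 TPM in Gclc KO and 283 to 771 TPM in Gclc WT mice, with 5 of 9 higher. The 8 acute phase genes summed to 37298 to 182448 TPM in Gclc KO mice, highest in Gclc KO 2, and to 6298 to 69609 TPM in Gclc WT mice, highest in Gclc WT 3, with 5 of 8 higher and sums that overlapped. Sums of sinusoidal endothelial, stellate, cholangiocyte, neutrophil and monocyte, and exocrine pancreas markers also overlapped, although the pancreas sum reached 250 TPM in Gclc WT 1. No gene of these lists was at 0 in all 8 mice, and the part of these shifts in the results below was not tested.

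Background on the enzymes frames the values. NQO1 reduces quinones by a 2-electron step with NADH or NADPH, which avoids the semiquinone radical. Its gene is a standard target of NRF2, the transcription factor that responds to electrophiles and oxidants through antioxidant response elements. NQO2 is its paralog but draws electrons from dihydronicotinamide riboside in place of NAD(P)H. Carbonyl reductases turn ketones and aldehydes into alcohols with NADPH, epoxide hydrolases add water to epoxides, and aldehyde oxidases are molybdenum enzymes that oxidise aldehydes and nitrogen heterocycles.

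Promoter windows are shown for Htatip2 and for the 2 pairs of genes that lie side by side on a chromosome. Of the 9 genes with a window, only Htatip2 had a match to the antioxidant response element core inside it, in 1 of 11 windows against 10.2% of all mouse windows. Sequence outside the windows was not searched, so a gene with no match here may hold one elsewhere. Cbr1 and Cbr3, which both rose, are neighbours on chromosome 16, and Aox1 and Aox3, which moved in opposite directions, are neighbours on chromosome 1, in each case with 0 protein-coding genes between them. The windows are the 250 bases before the RefSeq start (build GRCm38.p6), written 5′ to 3′ on the strand of the gene. Capitals mark TGACNNNGC (the antioxidant response element core), GCGTG (the xenobiotic response element core, bound by the AHR complex) and TGANTCA (the AP-1 heptamer), each searched on both strands.
Htatip2 chr7:49759262-49759511 (+): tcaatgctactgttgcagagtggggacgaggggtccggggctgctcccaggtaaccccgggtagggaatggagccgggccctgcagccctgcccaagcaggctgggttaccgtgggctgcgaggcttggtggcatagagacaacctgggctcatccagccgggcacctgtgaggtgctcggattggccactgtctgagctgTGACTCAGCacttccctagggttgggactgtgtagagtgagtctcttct
Cbr1 chr16:93607587-93607836 (+): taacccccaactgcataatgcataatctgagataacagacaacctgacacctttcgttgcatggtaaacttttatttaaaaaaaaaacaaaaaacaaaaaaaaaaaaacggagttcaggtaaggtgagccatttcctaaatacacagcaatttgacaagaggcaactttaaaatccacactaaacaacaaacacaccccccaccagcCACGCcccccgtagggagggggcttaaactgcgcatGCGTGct
Cbr3 chr16:93682969-93683218 (+): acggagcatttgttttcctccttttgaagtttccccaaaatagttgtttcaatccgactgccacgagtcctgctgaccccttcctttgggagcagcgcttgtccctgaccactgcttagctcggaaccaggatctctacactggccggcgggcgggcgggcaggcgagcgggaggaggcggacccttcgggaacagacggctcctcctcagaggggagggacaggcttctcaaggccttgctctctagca
Aox1 chr1:58029719-58029968 (+): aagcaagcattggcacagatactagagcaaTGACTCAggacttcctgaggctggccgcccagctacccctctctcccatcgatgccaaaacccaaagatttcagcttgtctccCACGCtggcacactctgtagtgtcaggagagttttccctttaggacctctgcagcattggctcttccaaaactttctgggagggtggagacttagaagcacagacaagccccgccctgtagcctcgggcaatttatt
Aox3 chr1:58112886-58113135 (+): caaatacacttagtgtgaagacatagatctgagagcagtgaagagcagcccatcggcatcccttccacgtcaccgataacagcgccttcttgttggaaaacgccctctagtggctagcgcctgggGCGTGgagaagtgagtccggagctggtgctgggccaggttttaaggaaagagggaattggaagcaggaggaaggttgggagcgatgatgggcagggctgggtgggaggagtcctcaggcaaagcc

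A RefSeq window was found for 9 of the 10 genes, 11 windows in all, and Ephx2 had no entry. The letters TGACNNNGC occurred in 1 of 11 windows, that of Htatip2 shown above, as TGACTCAGC, which overlaps an AP-1 heptamer. Among all 32851 mouse windows of this length, 10.2% held TGACNNNGC. GCGTG occurred in 6 of 11 windows (those of Nqo2, which has 2, and 1 each of Cbr1, Htatip2, Aox1 and Aox3), against 28.2% of all windows, and TGANTCA in 2 of 11 (Htatip2 and Aox1), against 6.75%. A match is a description of letters in the window and not of a bound site.

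All 10 genes passed the filter on level. Cbr3 passed it only through the Gclc KO mice, and so had to differ, and is left out of the counts here and described by its values below. Of the other 9, 5 were called higher (Nqo1, Cbr1, Htatip2, Ephx1 and Aox1), 3 were called lower (Nqo2, Ephx2 and Aox3), and Esd was not called. Over all genes tested, 16.4% were called higher and 13.0% lower. Every Gclc KO mouse lay above every Gclc WT mouse for 4 of the 9 genes, which 16.5% of all genes did, and below for 3, which 13.6% of all genes did. The median log2 fold change of the 9 was 1.28 and that of all genes 0.07, but the 9 moved both ways, between −2.72 and 2.98, so their median describes no shared direction.

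**Figure D1:**
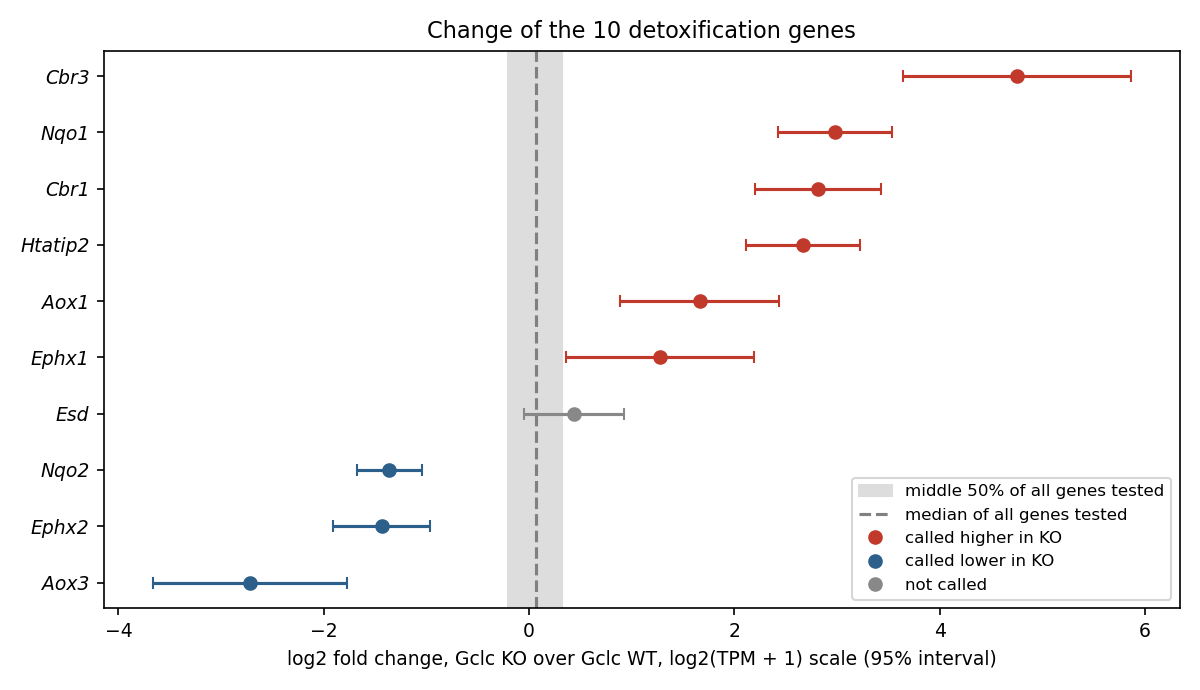
Log2 fold change (Gclc KO over Gclc WT, log2(TPM + 1) scale, horizontal axis) of the 10 genes with 95% intervals from limma (n = 4 mice each), above a grey band for the middle 50% of all 5893 genes tested and a dashed line at their median. Cbr3 lies farthest to the right at 4.75 and Aox3 farthest to the left at −2.72, and the interval of Esd crosses 0.

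The quinone reductases moved in opposite directions. Nqo1 (Entrez 18104) was at 96.1, 68.4, 95.1 and 114.6 TPM in Gclc KO mice 1 to 4, against 6.57, 12.05, 16.4 and 10.3 TPM in Gclc WT mice 1 to 4. The genotypes did not overlap, and the lowest Gclc KO mouse was well above the highest Gclc WT mouse. The mean was 93.5 ± 19.0 TPM in Gclc KO and 11.3 ± 4.10 TPM in Gclc WT livers (SD, n = 4 each), 8.24 times as high (log2 fold change 2.98, SE 0.25, limma adjusted p = 0.000177).

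Nqo2 (Entrez 18105) was at 17.4, 13.8, 14.9 and 20.3 TPM in Gclc KO mice, against 36.4, 46.3, 49.0 and 44.7 TPM in Gclc WT mice. All Gclc KO mice were below all Gclc WT mice, with little spread in either genotype. The mean was 16.6 ± 2.91 TPM in Gclc KO and 44.1 ± 5.43 TPM in Gclc WT livers, so the Gclc WT mean was 2.66 times the Gclc KO mean (log2 fold change −1.36, SE 0.14, limma adjusted p = 0.000441). Nqo2 held the lowest level of the 10 genes in Gclc KO livers, where Nqo1 stood sixth, and the order of the pair was the reverse in Gclc WT livers.

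**Figure D2:**
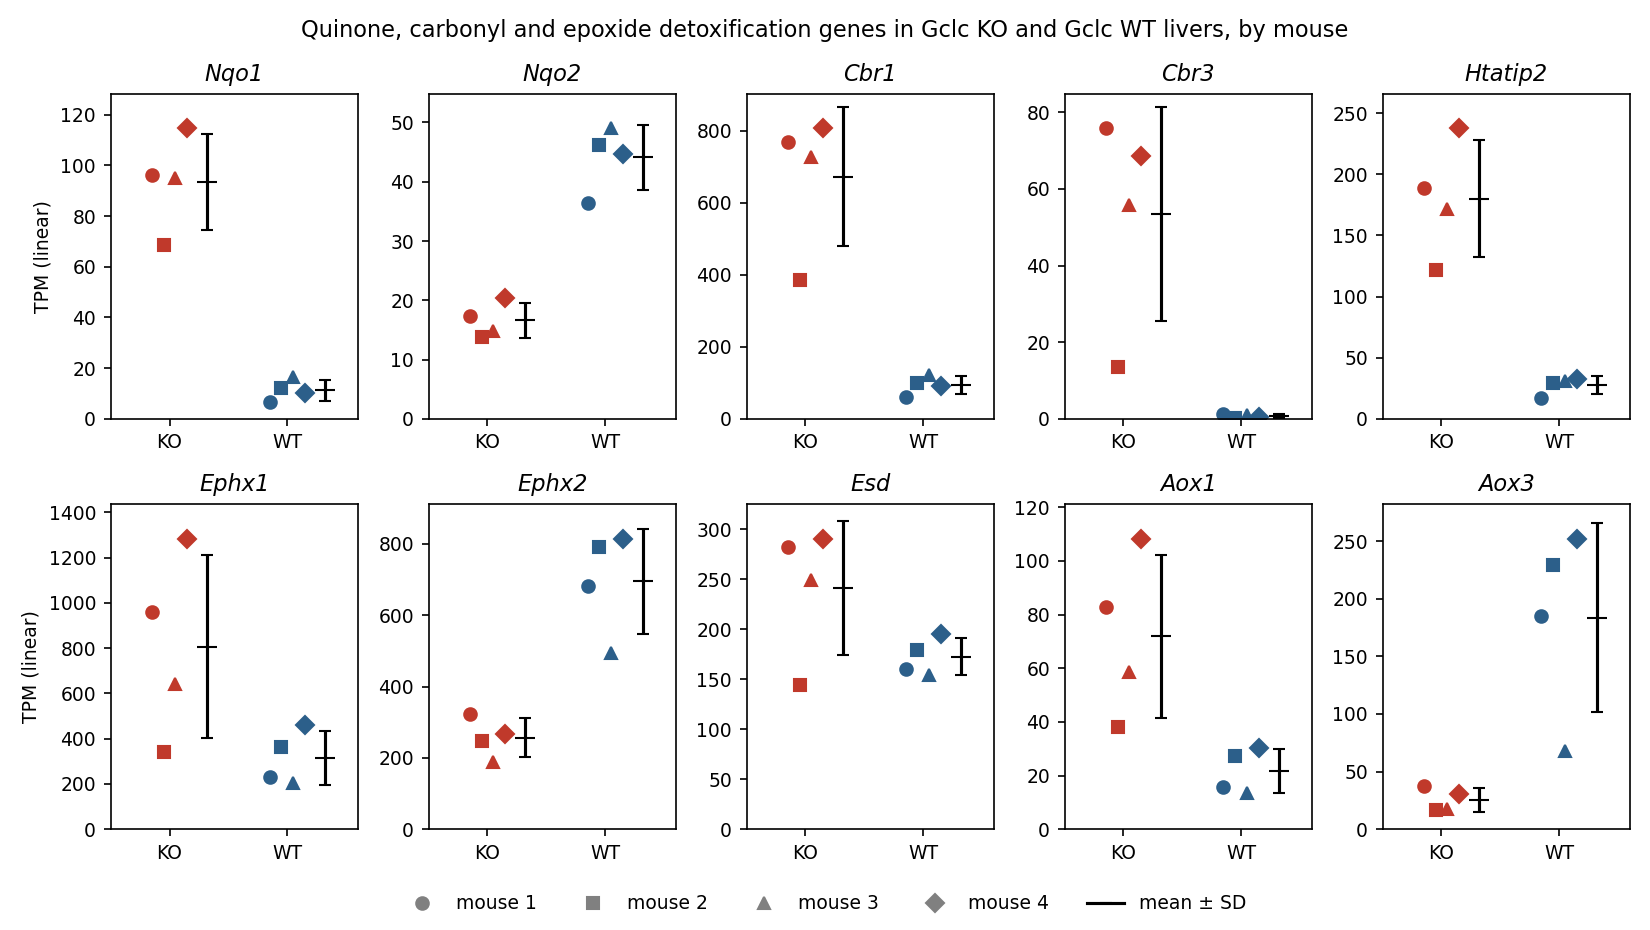
TPM (linear vertical axis, starting at 0 and scaled per gene) of the 10 genes in 4 Gclc KO (red, left) and 4 Gclc WT (blue, right) mice, with the mean ± SD in black. The genotypes are apart for 8 genes, Cbr3 among them, which passed the filter on level only through Gclc KO mice, and overlap for Ephx1 and Esd. Of all genes tested, 16.5% had every Gclc KO mouse above every Gclc WT mouse, and 13.6% had every one below. Gclc KO 2 (red square) is the lowest Gclc KO mouse for 9 of the 10, against 48.4% of all genes tested.

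The carbonyl reductases both rose. CBR1 is an NADPH-dependent short-chain dehydrogenase that reduces quinones, ketones and prostaglandins, and CBR3 is its close paralog. Cbr1 (Entrez 12408) was at 769, 387, 727 and 807 TPM in Gclc KO mice, against 62.1, 100.3, 122.1 and 90.3 TPM in Gclc WT mice. The genotypes did not overlap, and Gclc KO 2 stood well below the other Gclc KO mice. The mean was 672 ± 193 TPM in Gclc KO and 93.7 ± 24.9 TPM in Gclc WT livers, 7.17 times as high (log2 fold change 2.81, SE 0.27, limma adjusted p = 0.000337). Cbr1 was the second most abundant of the 10 genes in Gclc KO livers and the fifth in Gclc WT livers.

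Cbr3 (Entrez 109857) was near 0 in Gclc WT livers. It was at 75.8, 13.4, 55.9 and 68.7 TPM in Gclc KO mice, against 1.27, 0.22, 0.98 and 0.51 TPM in Gclc WT mice. Single libraries ran between 11.5 and 83.4 TPM in Gclc KO and between 0 and 1.76 TPM in Gclc WT mice, with 0 in 4 of 16 Gclc WT libraries. The mean was 53.4 ± 27.9 TPM in Gclc KO and 0.747 ± 0.471 TPM in Gclc WT livers, a ratio of 71.5. The fitted log2 fold change was 4.75 (SE 0.49). As the filter let Cbr3 in only through the Gclc KO mice, its test is taken from the fit with no filter, over 17019 genes (limma adjusted p = 0.00231). For so low a level it depended on the pseudocount, and became 5.26 at a pseudocount of 0.5 and 5.92 at 0.1.

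Htatip2 encodes a short-chain dehydrogenase-like protein, known in human cells as TIP30 or CC3, a cofactor of the HIV Tat protein and a suppressor of metastasis. Htatip2 (Entrez 53415) was at 189, 122.1, 172 and 238 TPM in Gclc KO mice, against 16.9, 29.4, 30.9 and 32.8 TPM in Gclc WT mice. The genotypes were far apart, and Gclc WT 1 stood below the other Gclc WT mice. The mean was 180 ± 47.7 TPM in Gclc KO and 27.5 ± 7.20 TPM in Gclc WT livers, 6.55 times as high (log2 fold change 2.67, SE 0.25, limma adjusted p = 0.000269).

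Epoxide hydrolases also parted. EPHX1 is the microsomal enzyme that hydrolyses epoxides of drugs and aromatic hydrocarbons. Ephx1 (Entrez 13849) was at 961, 342, 641 and 1284 TPM in Gclc KO mice, against 229, 362, 205 and 459 TPM in Gclc WT mice. The genotypes overlapped, with Gclc KO 2 below 2 of the 4 Gclc WT mice. The mean was 807 ± 406 TPM in Gclc KO and 314 ± 119 TPM in Gclc WT livers, 2.57 times as high (log2 fold change 1.28, SE 0.41, 95% interval 0.36 to 2.19, limma adjusted p = 0.0428). The call was lost in 9 of 25 alternatives, among them leaving out any of 6 of the 8 mice, where the adjusted p was 0.0717 to 0.103. Those were Gclc KO 1 (log2 fold change 1.14), 3 (1.33) and 4 (1.00) and Gclc WT 1 (1.15), 2 (1.37) and 3 (1.10). Without Gclc KO 2 the log2 fold change was 1.63 (limma adjusted p = 0.00988), and over the 25 alternatives the adjusted p ran from 0.00503 to 0.103.

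Ephx2 encodes the soluble epoxide hydrolase, which turns epoxides of fatty acids into diols. Ephx2 (Entrez 13850) was at 322, 247, 188 and 268 TPM in Gclc KO mice, against 682, 791, 493 and 815 TPM in Gclc WT mice. Every Gclc KO mouse was below every Gclc WT mouse. The mean was 256 ± 55.2 TPM in Gclc KO and 695 ± 147 TPM in Gclc WT livers, so the Gclc WT mean was 2.71 times the Gclc KO mean (log2 fold change −1.43, SE 0.21, limma adjusted p = 0.00188). Ephx2 was the most abundant of the 10 genes in Gclc WT livers, and Ephx1 was the most abundant in Gclc KO livers.

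Esd encodes S-formylglutathione hydrolase, which releases formate and GSH from S-formylglutathione, the product of ADH5 in formaldehyde breakdown. Esd (Entrez 13885) was at 282, 145, 249 and 290 TPM in Gclc KO mice, against 160, 180, 154 and 195 TPM in Gclc WT mice. Gclc KO 2 held the lowest value of all 8 mice, while the other 3 Gclc KO mice were above every Gclc WT mouse. The mean was 241 ± 67.0 TPM in Gclc KO and 172 ± 18.8 TPM in Gclc WT livers, and the difference did not pass the test (log2 fold change 0.44, SE 0.22, 95% interval −0.05 to 0.93, limma adjusted p = 0.157). Without Gclc KO 2 it was called, at a log2 fold change of 0.67 (limma adjusted p = 0.00772), and over 25 alternatives the adjusted p ran from 0.00772 to 0.324, with 3 calls.

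The aldehyde oxidases moved in opposite directions. AOX1 and AOX3 are paralogs with the same molybdenum and flavin cofactors, and AOX3 is a major form in mouse liver. Aox1 (Entrez 11761) was at 82.7, 38.2, 58.6 and 108 TPM in Gclc KO mice, against 15.8, 27.2, 13.4 and 30.1 TPM in Gclc WT mice. The genotypes did not overlap, though Gclc KO 2 came close to Gclc WT 4. The mean was 72.0 ± 30.3 TPM in Gclc KO and 21.6 ± 8.25 TPM in Gclc WT livers, 3.33 times as high (log2 fold change 1.66, SE 0.35, limma adjusted p = 0.00827).

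Aox3 (Entrez 71724) was at 37.5, 16.8, 17.2 and 30.6 TPM in Gclc KO mice, against 185, 230, 67.9 and 252 TPM in Gclc WT mice. The genotypes were apart, and Gclc WT 3 was well below the other Gclc WT mice. The mean was 25.5 ± 10.2 TPM in Gclc KO and 184 ± 82.1 TPM in Gclc WT livers, so the Gclc WT mean was 7.19 times the Gclc KO mean (log2 fold change −2.72, SE 0.42, limma adjusted p = 0.00240). Aox3 was the third most abundant of the 10 genes in Gclc WT livers and the ninth in Gclc KO livers.

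By mean TPM, the order in Gclc KO livers was Ephx1, Cbr1, Ephx2, Esd, Htatip2, Nqo1, Aox1, Cbr3, Aox3 and Nqo2. Neighbours in that order overlapped over mice except Cbr1 and Ephx2, and Htatip2 and Nqo1. In Gclc WT livers the order was Ephx2, Ephx1, Aox3, Esd, Cbr1, Nqo2, Htatip2, Aox1, Nqo1 and Cbr3. There Ephx1 overlapped with Aox3, Aox3 with Esd, Htatip2 with Aox1 and Aox1 with Nqo1, and the other neighbours did not overlap.

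Balance within the 4 pairs of related genes was compared as a log2 ratio of (TPM + 1) in each mouse. None of the 4 ratios overlapped between genotypes. For the pairs other than Cbr3 over Cbr1, a two-sided exact permutation test over 70 splits gave p = 0.0286, the smallest that 4 against 4 mice can give. The adjusted p from that test was also 0.0286, with all 4 pairs in the adjustment. For Nqo1 over Nqo2, Aox1 over Aox3 and Ephx1 over Ephx2 this outcome was fixed by the values above. In the first 2 of these pairs the genotypes did not overlap for either gene, and the genes moved in opposite directions. In Gclc KO mice, Ephx1 (at least 342 TPM) was above Ephx2 (at most 322 TPM) throughout. In Gclc WT mice, Ephx1 (at most 459 TPM) was below Ephx2 (at least 493 TPM) throughout. Cbr3 passed the filter on level only through the Gclc KO mice, so its ratio is read as values only. Nqo1 over Nqo2 was 2.42 ± 0.15 in Gclc KO and −1.92 ± 0.33 in Gclc WT mice, a difference of 4.34. Nqo1 made up 83.3 to 86.4% of the summed TPM of the pair in Gclc KO mice and 15.3 to 25.1% in Gclc WT mice, and the sum was 110 ± 21.6 TPM in Gclc KO and 55.4 ± 9.39 TPM in Gclc WT livers.

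Aox1 over Aox3 was 1.44 ± 0.36 in Gclc KO and −2.94 ± 0.50 in Gclc WT mice, a difference of 4.38. Aox1 was 68.8 to 78.0% of the pair's TPM in Gclc KO mice and 7.89 to 16.5% in Gclc WT mice. The pair's sum was 97.5 ± 38.8 TPM in Gclc KO and 205 ± 89.4 TPM in Gclc WT livers. Ephx1 over Ephx2 was 1.52 ± 0.76 in Gclc KO and −1.20 ± 0.31 in Gclc WT mice, a difference of 2.71. Ephx1 was 58.0 to 82.7% of the pair in Gclc KO mice and 25.1 to 36.1% in Gclc WT mice, and the sums differed by less than their SD, at 1063 ± 434 TPM in Gclc KO and 1009 ± 257 TPM in Gclc WT livers. The genotypes did not overlap in this ratio, but Ephx2 alone also kept them apart, so the ratio adds no support to the call on Ephx1.

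Cbr3 over Cbr1, where both genes rose, was −3.82 ± 0.63 in Gclc KO and −5.76 ± 0.68 in Gclc WT mice, a difference of 1.94. Its separation was narrow, with Gclc KO 2 at −4.75 and Gclc WT 1 at −4.79. Cbr3 averaged 6.83% of the pair's TPM in Gclc KO and 0.897% in Gclc WT mice, and the sum was 726 ± 221 TPM in Gclc KO and 94.5 ± 24.7 TPM in Gclc WT livers.

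**Figure D3:**
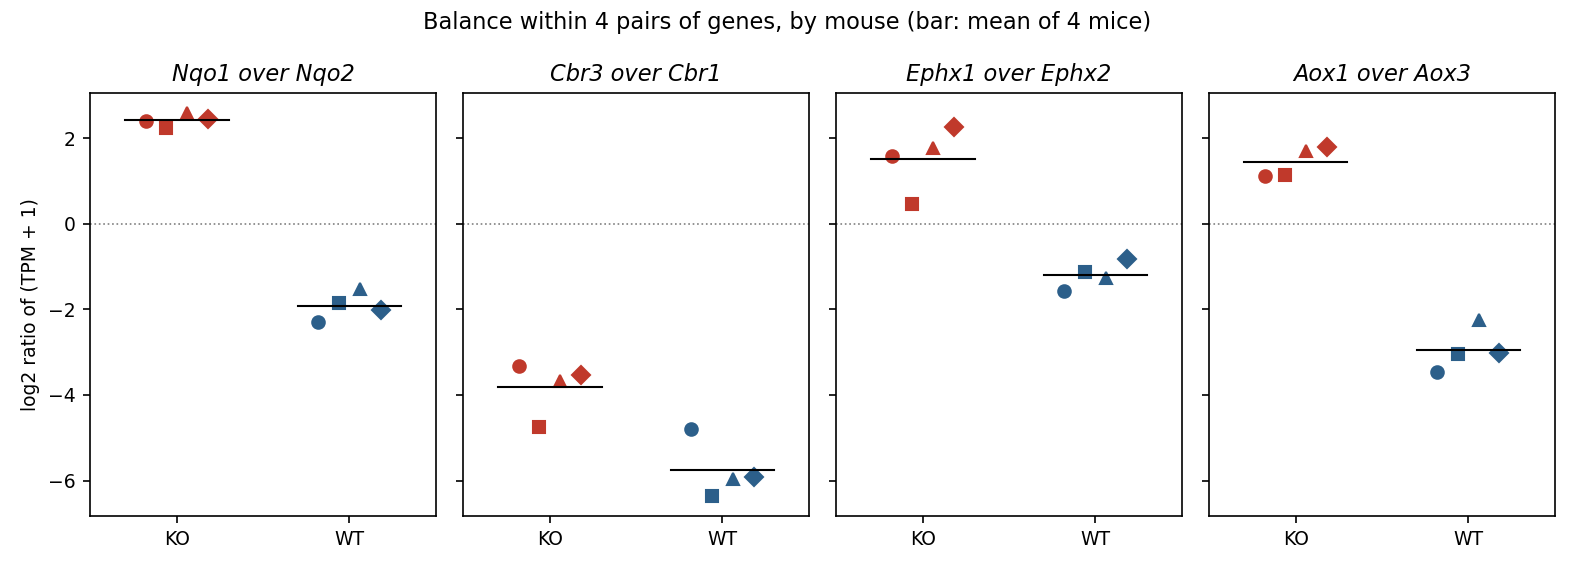
Log2 ratio of (TPM + 1) within 4 pairs of genes (vertical axis) in 4 Gclc KO (red, left) and 4 Gclc WT (blue, right) mice, with a bar at the mean of each genotype. For Nqo1 over Nqo2, Ephx1 over Ephx2 and Aox1 over Aox3 all Gclc KO mice lie above 0 and all Gclc WT mice below it, while Cbr3 stayed below Cbr1 in all 8 mice.

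Mice of 1 genotype did not sit at the same place for these genes. Gclc KO 2 was the lowest Gclc KO mouse for 9 of the 10 genes, the exception being Ephx2, where Gclc KO 3 was lowest. Over all genes tested it was lowest for 48.4%. Gclc KO 4 was the highest Gclc KO mouse for 7 of the 10, against 52.0% of all genes. Gclc KO 2 also had the highest acute phase sum, and whether that bears on its position was not tested. With Gclc KO 2 and Gclc WT 3, the 2 mice highest in acute phase genes of their genotype, left out together, an alternative chosen after seeing the data, Esd was called higher (log2 fold change 0.62, limma adjusted p = 0.0103) and no call of the other 9 genes changed. In that fit 21.2% of all genes were called higher and 11.4% lower.

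Xist RNA, which is made from the inactive X chromosome, was detected in Gclc KO 2 (30.2 TPM), Gclc KO 3 (22.8 TPM) and Gclc WT 3 (25.7 TPM) while no other mouse exceeded 0.0225 TPM. Ddx3y, a gene of the Y chromosome, was at 0 TPM in Gclc KO 2, Gclc KO 3 and Gclc WT 3 and at 22.6 to 32.7 TPM in all other mice. The labels give no sex, but the 2 genes together mark 2 of 4 Gclc KO mice and 1 of 4 Gclc WT mice as female. Ephx1, Ephx2, Esd, Aox1 and Aox3 were lower in the mice with Xist than in those without it in both genotypes, an order that 11.6% of all genes showed. The 2 Gclc KO mice with Xist were also the 2 Gclc KO mice with the highest acute phase sums, and the 1 Gclc WT mouse with Xist was the highest of its genotype, so Xist and the acute phase genes cannot be told apart in either genotype. With Xist as a covariate the log2 fold change was −2.40 for Aox3 (SE 0.17, limma adjusted p = 6.71e-05), 1.89 for Aox1 (SE 0.23, adjusted p = 0.000798) and 1.53 for Ephx1 (SE 0.28, adjusted p = 0.00503). Esd reached 0.54 and was not called (adjusted p = 0.0528).

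**Figure D4:**
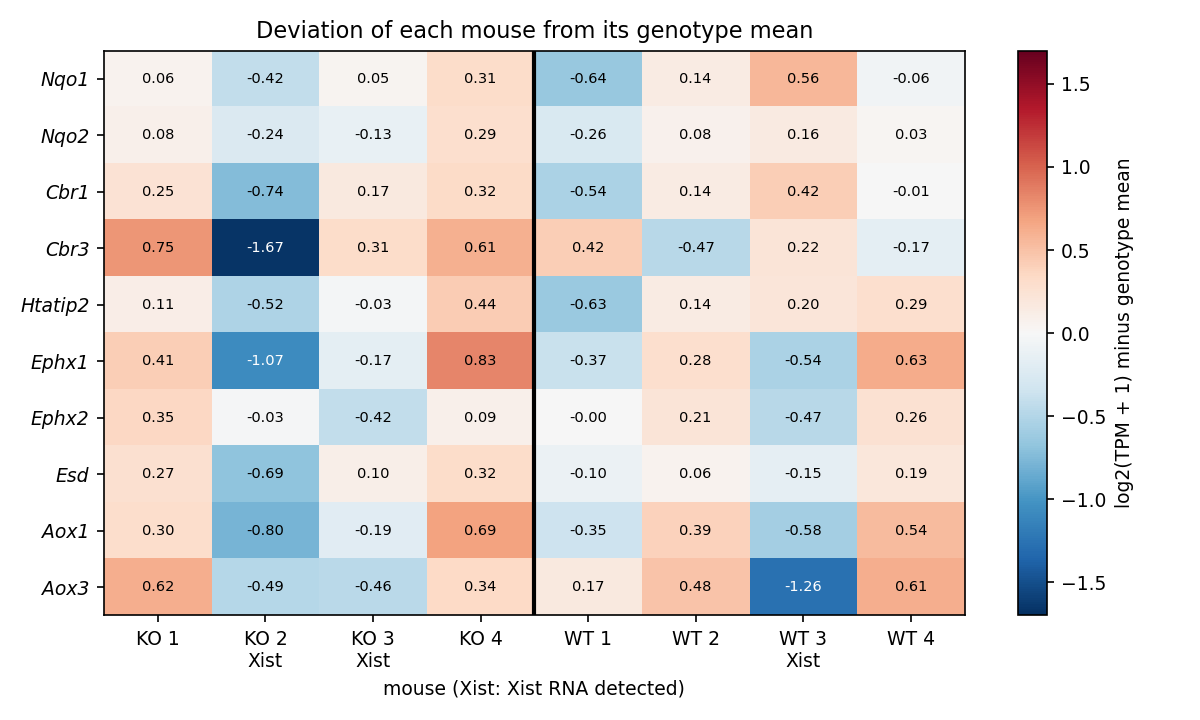
Deviation of each mouse from the mean of its genotype on the log2(TPM + 1) scale (colour and number) for the 10 genes, Gclc KO mice left and Gclc WT mice right of the black line, with the 3 mice in which Xist was detected marked. Gclc KO 2 is below its genotype mean for all 10 genes, and Gclc WT 3 is below it for Ephx1, Ephx2, Esd, Aox1 and Aox3 and above it for the other 5.

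The spread among the 4 libraries of a mouse was smaller than that among mice. The SD of log2(TPM + 1) among libraries, as a median over mice, was 0.04 to 0.25 for the 10 genes, largest for Cbr3, against 0.23 to 1.13 among Gclc KO mice and 0.15 to 0.86 among Gclc WT mice. Batch 1 libraries alone and batch 2 libraries alone gave the same calls for all 10 genes. For Nqo1 the log2 fold change was 3.00 in batch 1 and 2.97 in batch 2, for Cbr3 4.68 and 4.89, for Ephx1 1.32 and 1.23, and for Aox3 −2.66 and −2.78.

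Sequence shared with other genes bears on how firmly a value belongs to its gene. Of the 31-base words in its annotated transcripts, Cbr3 shared 2.31% with another gene, always Cbr1, and Cbr1 shared 7.83%, mostly with the predicted gene Gm5678. Esd shared the most, 12.1%, mostly with Gm5456, and Ephx1 shared 3.25%, while Nqo1, Htatip2 and Ephx2 shared 0%. No source used here says how the authors' quantification split such reads, so the levels of Esd and Cbr1 carry that uncertainty.

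Genes of related chemistry did not share one direction, beside 16.4% of all genes tested called higher and 13.0% called lower. Among 21 tested genes of other carbonyl, enone and quinone reductases, 2 were called higher, 9 lower and 10 neither, with a median log2 fold change of −0.45. Dhrs3, which reduces retinal, was at 52.1 ± 4.27 TPM in Gclc KO and 114.01 ± 9.23 TPM in Gclc WT livers (log2 fold change −1.11, limma adjusted p = 0.000315). Pecr and Decr2, peroxisomal reductases of fatty acyl-CoA, fell with log2 fold changes of −1.36 (adjusted p = 0.000951) and −1.33 (adjusted p = 0.000956). Of 10 tested genes of formaldehyde and glyoxal handling, 0 were higher and 4 lower (median −0.53). Hagh and Glo1, the 2 enzymes of the glyoxalase pathway, had log2 fold changes of −0.95 (adjusted p = 0.00394) and −0.78 (adjusted p = 0.00421), and Aldh9a1, an aldehyde dehydrogenase, −0.91 (adjusted p = 0.00404).

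Flavoproteins and molybdenum enzymes were mixed. Of 5 tested flavoprotein reductases, Txnrd1, thioredoxin reductase, was at 201 ± 59.0 TPM in Gclc KO and 67.9 ± 4.62 TPM in Gclc WT livers (2.96 times as high, limma adjusted p = 0.00167), and Cyb5r3, cytochrome b5 reductase, was lower (log2 fold change −1.05, adjusted p = 0.00433). The other 3 were not called, including Aifm2, a reductase of ubiquinone (0.45, adjusted p = 0.0675). Of 8 tested genes of molybdenum enzymes and their cofactor, 1 was higher and 2 were lower (median −0.13), against 16.4% and 13.0% of all genes tested. Mocos, whose product adds the sulfur that aldehyde oxidases need for activity, was at 45.9 ± 12.02 TPM in Gclc KO and 22.7 ± 2.83 TPM in Gclc WT livers (0.96, adjusted p = 0.00612). Gphn, which inserts molybdenum into the cofactor, was lower (−0.74, adjusted p = 0.00367), as was Suox, sulfite oxidase (−0.48, adjusted p = 0.0214), although Suox lost its call in 5 of 25 alternatives. Lta4h, the only other epoxide hydrolase tested, was not called (0.26, adjusted p = 0.182).

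NRF2 targets other than the 10 genes were mostly called higher. Of 13 tested NRF2 targets, 10 were called higher, 0 lower and 3 neither, with a median log2 fold change of 1.51. Of these, 2 passed the filter on level only through the Gclc KO mice. Without them 8 of 11 were called higher and 0 lower, against 16.4% and 13.0% of all genes tested. Hmox1, heme oxygenase, was at 168 ± 27.5 TPM in Gclc KO and 19.5 ± 5.41 TPM in Gclc WT livers (log2 fold change 3.07, limma adjusted p = 7.11e-05). Abcc4, an efflux transporter that was one of these 2, had a log2 fold change of 3.11 (limma adjusted p = 0.00231 in the fit with no filter). Gsr, glutathione reductase, had a log2 fold change of 1.40 (adjusted p = 0.00126). Of the 8 genes of the AHR battery only 2 were tested, too few to describe the list: Cyp1a2 was at 110.99 ± 39.5 TPM in Gclc KO and 586 ± 155 TPM in Gclc WT livers (−2.42, adjusted p = 0.000904), and Ugt1a6a was not called (0.41, adjusted p = 0.0769), though it was called higher in 4 of 25 alternatives. Among those under the filter, Tiparp, named after its values were seen, was at 6.94 ± 1.15 TPM in Gclc KO and 3.40 ± 1.38 TPM in Gclc WT livers with no overlap, and was not tested. Cyp1a1, Cyp1b1, Ahrr and Aldh3a1, also under the filter, overlapped between genotypes. Of the genes that passed the filter, 16.5% had every Gclc KO mouse above every Gclc WT mouse. Cyp1a2 is also one of the pericentral genes, whose sum was lower in Gclc KO livers as given above.

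**Figure D5:**
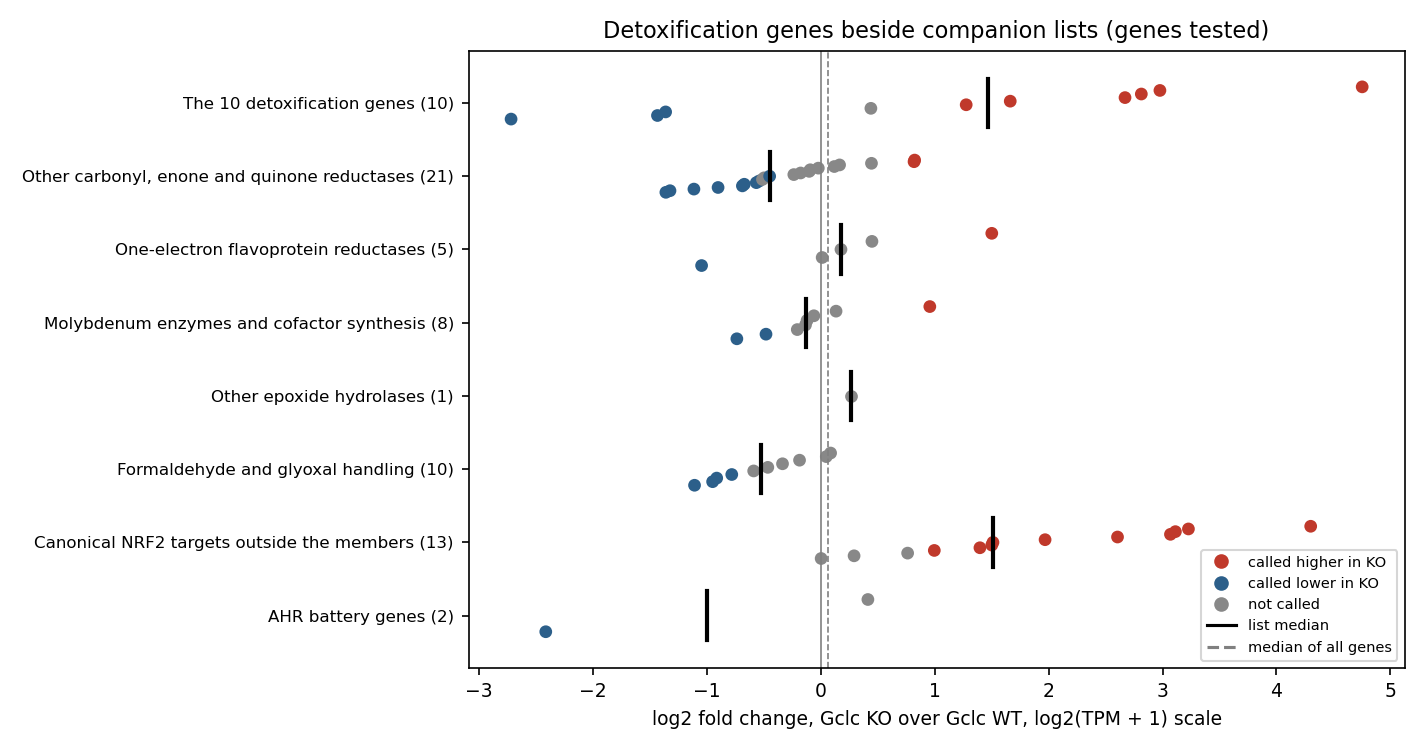
Log2 fold change (Gclc KO over Gclc WT, log2(TPM + 1) scale, horizontal axis) of each tested gene in the 10 detoxification genes and in 7 lists of related genes, with the number tested in brackets, a black bar at the list median and a dashed line at the median of all genes. The 10 detoxification genes hold 6 genes called higher (Cbr3, which passed the filter on level only through Gclc KO mice, among them) and 3 called lower, the NRF2 targets 10 and 0, and the other carbonyl, enone and quinone reductases 2 and 9. Of the NRF2 targets, 2 also passed only through Gclc KO mice, and without them 8 of 11 were called higher. Over all genes tested, 16.4% were called higher and 13.0% lower.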

How the data were processed

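Livers of 4 Gclc KO and 4 Gclc WT mice were measured by RNA-seq in 32 libraries, made with a strand-specific mRNA kit per the labels. The deposited table holds 1 TPM value per gene and library, although its name calls them normalized counts: each library summed to between 999315 and 999534 and low values shared no common step, so the unit is read from the values. The submitters' processing notes name bcl2fastq 2.2, and no source used here gives the aligner, the quantifier or the genome build. TPM keep no depth, so the precision rests on the mice alone.

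Of 20896 rows, the 75 that repeated a symbol were dropped. The 4 libraries of a mouse were averaged as repeats of that mouse, and mice are the replicates. Values were transformed to log2(TPM + 1), genes whose mean reached 10 TPM were kept, and limma 3.58.1 (R 4.3.3, two-sided, eBayes with trend) compared the genotypes at a Benjamini-Hochberg adjusted p of 0.05. Pair ratios were compared by exact permutation. The model was tested on simulated data.

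The 10 genes and all lists were chosen with earlier results of these data known. Named genes were the 10, Gclc and up to 3 genes of each list with the smallest adjusted p. Alternatives covered the pseudocount, filter, scaling, a robust fit, a replicate block, single batches and runs, Xist and each mouse left out. Promoters came from RefSeq (GRCm38.p6) and shared 31-base words from the GENCODE transcripts.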

Additional observations from a re-analysis of the deposited data

Results flagged for a closer look

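Among 66 groups of 4 mice (58 of the named genes by genotype and 8 of the pair ratios), 5 held 1 mouse that stood far from the other 3 (Dixon's criterion at 95%), or 7.58%, where chance gives about 1 in 20. All 5 were of genes, given here on the log2(TPM + 1) scale. Cbr1 was at 8.598 in Gclc KO 2, against 9.507 to 9.658 in the other Gclc KO mice. Gclc KO 2 was the lowest Gclc KO mouse for 9 of the 10 detoxification genes, against 48.4% of all genes tested. Htatip2 was at 4.164 in Gclc WT 1, and the remaining Gclc WT mice lay at 4.927 to 5.08. Gclc WT 1 also stood apart for Aifm2, at 3.947 against 4.456 to 4.549, and its pancreas marker sum was 250 TPM. Dhrs3 was at 5.547 in Gclc KO 3, against 5.77 to 5.807 in the other Gclc KO mice. Cyp1a2 was at 8.469 in Gclc WT 3, and the remaining Gclc WT mice lay at 9.347 to 9.395.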

How the results depend on the processing

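No result changed direction under any alternative run. Nqo1, Nqo2, Cbr1, Htatip2, Ephx2, Aox1, Aox3 and Gclc kept their calls in every alternative that tested them. Cbr3 was also called in each, but it passed the filter on level only through the Gclc KO mice, so those calls add no support. With no filter its limma adjusted p was 0.00231. Nqo2, Cbr3 and Aox1 were not tested at a filter of 50 TPM, which left 1902 genes, 418 higher and 433 lower, by construction fewer. Leaving out 1 mouse at a time gave 549 to 1084 genes higher and 472 to 715 lower: 622 higher without Gclc KO 1, 635 higher without Gclc KO 4, 549 higher and 472 lower without Gclc WT 2, and 505 lower without Gclc WT 4. The cause was not tested. Ephx1 lost its call at a filter of 1 TPM (adjusted p = 0.0508), with no filter (0.0885), in a robust fit (0.0581) and without 6 of the 8 mice. Esd gained a call in the mice without Xist (log2 fold change 0.68, limma adjusted p = 0.00867), which leaves 2 Gclc KO and 3 Gclc WT mice. Ugt1a6a gained a call with Xist as a covariate (adjusted p = 0.0110), in the mice without Xist (0.0157), with the total scaling (0.0336) and in run 1 alone (0.0464). Lta4h gained 1 in the mice without Xist (0.0153), and Aifm2 gained 1 with the total scaling (0.0413) and 1 without Gclc KO 2 and Gclc WT 3 (0.0475). Scaling by a trimmed mean of M values or by median of ratios gave 16.4% or 16.2% of genes higher and 17.8% or 17.9% lower, and a total that left out the 50 top genes gave 21.2% and 14.4%, with the same calls for all 10 detoxification genes.

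Same-numbered mice of both genotypes did not all deviate together, with correlations of 0.09, −0.19, 0.41 and 0.33 for numbers 1 to 4. Numbers 3 and 4 had higher correlations than any Gclc KO and Gclc WT mice of different numbers (at most 0.32). A pairing by number was thus neither shown nor excluded. With the number as a replicate block, 14.5% of genes were higher and 11.2% lower, the calls of the 10 detoxification genes were the same, Suox lost its call (adjusted p = 0.0511) and Aifm2 gained one (0.0318). Under the block or with 1 mouse left out, the pair ratios are values only, as 4 number pairs cannot give a p below 0.125 and 3 against 4 mice gave none below 0.0571. The pair differences ran from 4.21 to 4.49 for Nqo1 over Nqo2, 1.74 to 3.10 for Cbr3 over Cbr1, 2.46 to 3.06 for Ephx1 over Ephx2 and 4.21 to 4.61 for Aox1 over Aox3. TPM give no depth, so the floor for Cbr3 in Gclc WT livers is unknown.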
